A study of Mus musculus with 4 samples.

Results

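Glycolysis splits glucose into pyruvate, and several of its steps are carried out by isoenzymes that different genes encode. The genes described here were 10 gene symbols of that pathway (Hk1, Hk2, Pfkl, Pfkm, Pfkp, Aldoa, Aldoc, Pgk1, Pkm and Gapdh), chosen by name. They took up 11 of the 31053 gene rows of the deposited tables, because Aldoa stood on 2 rows with different gene IDs. UMIs (unique molecular identifiers, which count captured RNA molecules) were recovered for all 11 rows. Nuclear RNA of wild-type mouse retina had been profiled by the 10x single-nucleus method in 4 libraries, each from a dissected left eye. Of these, 2 came from animals of 5 months (donors 1 and 2) and 2 from animals of 2.5 months (donors 1 and 2). The title of the series names human retina, while every sample is labelled as mouse and the gene IDs in the files are those of mouse. The labels give no strain. The labels number the donors within each age and do not say whether a library pooled animals, so each library was taken as 1 replicate.

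Hexokinase phosphorylates glucose and so traps it in the cell. Phosphofructokinase is the main control point of the pathway, and pyruvate kinase makes the final product. Photoreceptors are known for making lactate from glucose even when oxygen is present, and hexokinase 2 is known in the mouse retina as a photoreceptor isoenzyme, while Müller glia, the radial glia of the retina, and the retinal pigment epithelium, which lies behind the photoreceptors, are their metabolic partners.

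The libraries held 7404 to 9963 barcodes with 19608067 to 36320257 UMIs in all, and the median barcode had 1812.5 to 2899.5 UMIs. Nuclei were clustered without the genes described here, and clusters were named from marker genes. The 8 retinal classes used were 7451 rods, 3155 cones, 3234 Müller glia, 283 pigment epithelium nuclei, 2866 bipolar, 5359 amacrine, 322 horizontal and 1732 ganglion nuclei. The names are rebuilt from markers and are not the authors' annotation. All 10 rod and all 10 cone markers were highest in their own class, as were 7 of 10 Müller glia markers and 10 of 12 pigment epithelium markers. Rod markers summed to 20359 to 21789 CPM (UMIs per 1e6 UMIs) in rods, but also to 663 to 8823 CPM in the other classes, which bears on every gene that rods express strongly. A further 1572 nuclei with rod genes were led by muscle genes and were left out of the rods; 1268 of them came from donor 1 of 2.5 months, in which muscle genes summed to 91.8 to 307 CPM per retinal class, against 15.03 to 117 CPM in the other libraries. Pairs of libraries shared 6 to 25 barcodes. The 5-month libraries were processed with Cell Ranger 4.0.0 and the 2.5-month libraries with 7.1.0. Removal of called doublets was also unequal: it took 7.87% to 8.92% of each older library, but at most 0.0406% of a younger one. The effect of age thus cannot be told apart from that of the software or of doublet removal. Levels are CPM of all UMIs in the class and library. Fitted differences are scaled by TMM, which sets aside shifts shared by most genes, and so do not equal ratios of CPM. Against scaling to total UMIs alone, TMM lowered photoreceptors relative to inner neurons by a median of 0.27 (log2) over the glycolysis genes and set the median of all genes in that contrast to 0.02 in place of 0.28. The median of all genes was likewise 0.06 in place of 0.26 for photoreceptors minus Müller glia, and -0.08 in place of -0.25 for pigment epithelium minus photoreceptors. In summed nuclei, fewer expressing nuclei and less RNA per nucleus cannot be told apart.

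The promoters of 3 members are shown because Hk2 and Hk1 were higher, and Pfkp lower, in photoreceptors than in inner neurons. Windows run from 250 bases before to 50 bases after the start given by RefSeq (GRCm38.p6, gene strand, all 3 on the minus strand). Capitals mark TAATCC (the core bound by the photoreceptor factors Crx and Otx2), CACGTG (an E-box) and ACGTG (the core of the hypoxia response element, which every CACGTG also contains), searched on both strands.
Hk2, chr6:82774405-82774704: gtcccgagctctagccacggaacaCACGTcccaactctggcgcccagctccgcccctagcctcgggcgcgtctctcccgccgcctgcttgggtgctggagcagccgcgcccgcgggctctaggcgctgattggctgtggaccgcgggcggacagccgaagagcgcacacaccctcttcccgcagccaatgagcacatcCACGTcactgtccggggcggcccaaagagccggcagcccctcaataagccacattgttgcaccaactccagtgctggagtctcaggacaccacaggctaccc
Hk1, chr10:62340372-62340671: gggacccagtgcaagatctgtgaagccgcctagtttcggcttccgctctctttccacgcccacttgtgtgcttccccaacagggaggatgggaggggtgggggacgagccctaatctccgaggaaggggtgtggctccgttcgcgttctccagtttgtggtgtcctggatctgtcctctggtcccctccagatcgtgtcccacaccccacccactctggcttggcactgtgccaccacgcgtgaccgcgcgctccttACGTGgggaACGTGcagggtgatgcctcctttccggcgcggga
Pfkp, chr13:6648722-6649021: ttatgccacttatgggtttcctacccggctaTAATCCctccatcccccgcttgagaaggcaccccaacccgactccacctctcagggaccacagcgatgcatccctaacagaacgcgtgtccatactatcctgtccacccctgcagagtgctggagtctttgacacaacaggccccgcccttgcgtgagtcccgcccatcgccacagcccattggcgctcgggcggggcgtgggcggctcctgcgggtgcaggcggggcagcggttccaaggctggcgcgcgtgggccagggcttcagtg
The Hk2 window holds ACGTG at -226 and -52 from the start, and the Hk1 window at 7 and 16. The Pfkp window holds 1 TAATCC, at -219, and no ACGTG. Among 32851 promoter windows of this length 19.6% hold ACGTG, 7.06% TAATCC and 7.15% CACGTG. Over the windows of all 10 members, 8 members have ACGTG in at least 1, Pfkm (lower in photoreceptors, like Pfkp) among them, and 3 have TAATCC. Some members have several windows, so these counts per member cannot be set against the shares per window. The Hk1 window shown lies inside the annotated gene span (chr10:62268855-62379908, minus strand), at an inner start. A second Hk1 window, chr10:62379859-62380158, covers the start of that span and holds none of the 3 motifs. Hk1 is thus among the 8 members with ACGTG through the inner window only. These matches describe letters and not binding.

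**Figure D1:**
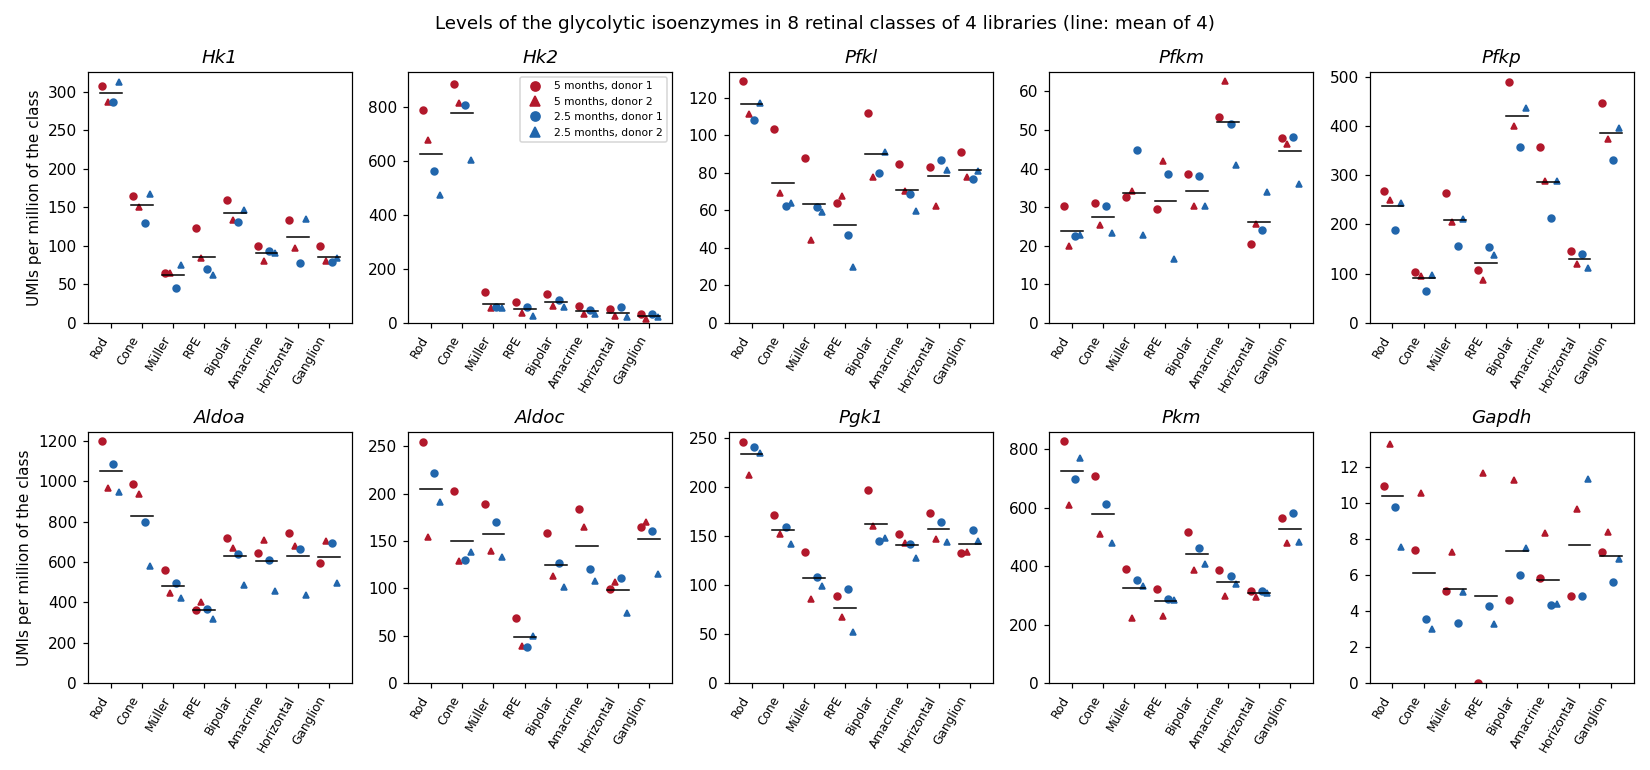
Level of each of 10 glycolytic genes (vertical axis, CPM of the class, from 0) in 8 retinal classes (horizontal axis; RPE, pigment epithelium), with 1 point for each of 4 libraries and a line at their mean. Hk2 stands at 472 to 886 CPM in rods and cones, against 15.5 to 116 CPM elsewhere, while Pfkp is lowest in cones and highest in bipolar and ganglion nuclei.

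Gene spans are given on GRCm38 from GENCODE M21. Hk2 (chr6:82725025-82774454, minus strand) was far higher in photoreceptors than in every other retinal class. It had 789 and 678 CPM in rods at 5 months and 563 and 472 CPM in rods at 2.5 months. Cones had 886 and 813 CPM at 5 months and 806 and 603 CPM at 2.5 months. No library of any other class exceeded 116 CPM, so that photoreceptors did not overlap any of the other 6 classes. Averaged over rods and cones, Hk2 stood at 701 ± 126 CPM in photoreceptors and 46.5 ± 15.3 CPM in inner neurons (SD, n = 4 libraries; inner neurons are bipolar, amacrine, horizontal and ganglion nuclei with equal weight). The difference was 3.83 on the log2 scale (SE 0.08, adjusted p = 1.02e-37, edgeR's quasi-likelihood test with Benjamini-Hochberg adjustment), a 14.25-fold difference, and 1.05% of the genes tested differed as far in that direction. It was 3.95 within the 5-month and 3.69 within the 2.5-month libraries. Thinned to 1000 UMIs a nucleus, 36.4% to 49.1% of rods and 44.3% to 56.7% of cones had an Hk2 UMI (unthinned, 43.1% to 61.2% and 79.2% to 81.5%). The thinned share was 5.89% to 11.5% in bipolar nuclei, 3.41% to 12.2% in Müller glia and 1.92% to 3.54% in ganglion nuclei (unthinned, 14.4% to 22.0%, 13.9% to 25.7% and 12.4% to 21.8%). Thinning left out nuclei under 1000 UMIs, which kept 5208 of 7451 rods, 3104 of 3155 cones, 2844 of 2866 bipolar nuclei, 3220 of 3234 Müller glia and 1730 of 1732 ganglion nuclei.

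Outside photoreceptors Hk2 mostly lay below the level of the rod genes read in the same nuclei. In 22 of 24 sums of the 6 other classes, the Hk2 level as a percentage of rods in the same library was below the corresponding percentage of the rod genes. The range was 2.28% to 14.7% for Hk2, against 3.11% to 19.4% for the rod genes. In Müller glia Hk2 reached 7.96% to 14.7% of rods beside rod genes at 11.1% to 18.03%. When a share of rod RNA set by those rod genes was subtracted, Hk2 was at 0 in every library of Müller glia, pigment epithelium, bipolar and amacrine nuclei. It was at most 0.34 CPM in ganglion nuclei and 15.5 CPM in 1 horizontal sum. Whether the rod genes and Hk2 in these classes came from free rod RNA was not tested. The call of Hk2 as higher in Müller glia than in inner neurons (log2 difference 0.72, SE 0.13, adjusted p = 4.37e-06, edgeR's quasi-likelihood test), which was 0.45 within 2.5 months (adjusted p = 0.0857), had no fold left after the subtraction.

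Hk1 (chr10:62268855-62379908, minus strand), the hexokinase that binds mitochondria in most tissues, was highest in rods. Rods had 308 and 287 CPM at 5 months and 286 and 313 CPM at 2.5 months. Cones had 164 and 150 CPM at 5 months and 130 and 168 CPM at 2.5 months. The rods stood apart from every other class. Cones and bipolar nuclei (131 to 159 CPM) overlapped. Müller glia had the lowest mean, with 64.8 and 64.2 CPM at 5 months and 44.9 and 75.0 CPM at 2.5 months. They overlapped pigment epithelium (62.5 to 123 CPM). Hk1 was 226 ± 15.04 CPM in photoreceptors and 108 ± 13.3 CPM in inner neurons (SD, n = 4), a log2 difference of 0.75 (SE 0.06, adjusted p = 5.83e-16, edgeR's quasi-likelihood test), with 0.74 within 5 months and 0.79 within 2.5 months. Müller glia were lower than inner neurons by a log2 difference of -0.81 (SE 0.09, adjusted p = 3.53e-11), which became -2.0 with rod RNA subtracted. In the 24 sums outside photoreceptors Hk1 was at 15.7% to 51.6% of rods, above the percentage of the rod genes in 23.

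**Figure D2:**
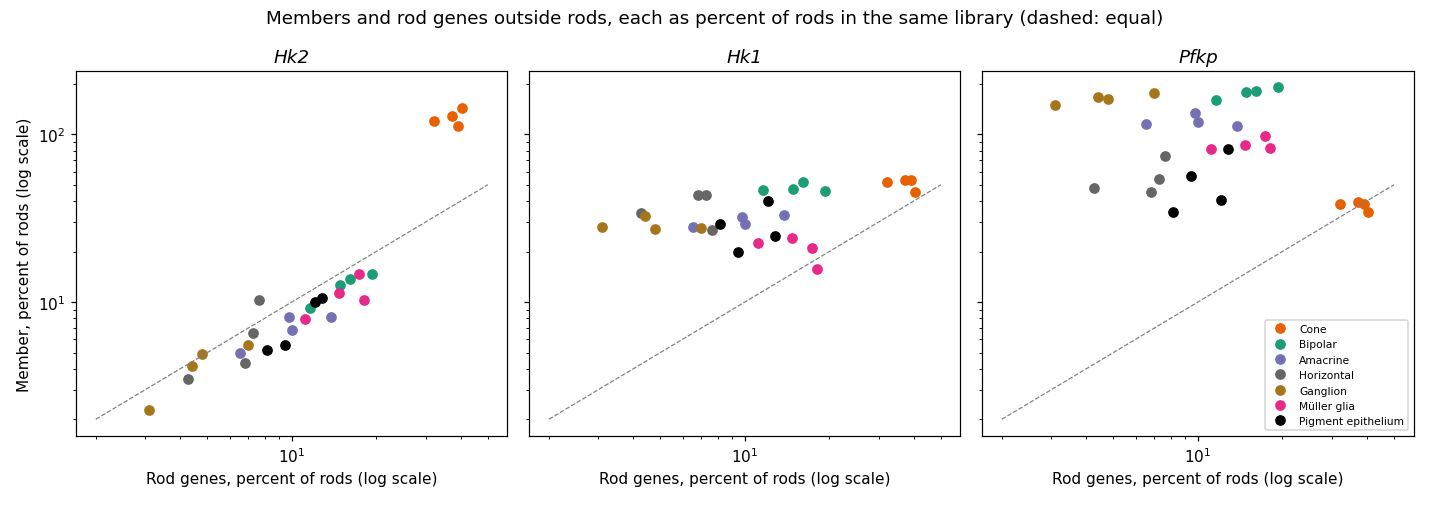
Level of Hk2, Hk1 and Pfkp in each class outside rods as a percentage of rods of the same library (vertical axis, log scale) against the same percentage for the rod genes (horizontal axis, log scale), 1 point per class and library; the dashed line marks equality. Outside cones Hk2 is at 2.28% to 14.7% and under the line in 22 of 24 points, the exceptions being 1 horizontal and 1 ganglion sum, while Hk1 and Pfkp mostly lie above it, except Pfkp in cones at 34.6% to 39.5%.

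Hk2 made up 75.2 ± 4.1% of hexokinase 1 and 2 UMIs in photoreceptors, 52.0 ± 10.3% in Müller glia, 36.0 ± 8.0% in pigment epithelium and 28.8 ± 6.5% in inner neurons (SD, n = 4). Shares are compared between classes for the same genes only, since a UMI share does not correct for gene length. Cones had the highest share, 78.2% to 86.1%, and rods 60.2% to 71.9%, without overlap. The share was higher in photoreceptors than in inner neurons by 46.4 ± 5.2 percentage points and in 4 of 4 libraries. The exact sign-flip permutation test over libraries gave the smallest p that 4 libraries allow, and p = 0.268 after Benjamini-Hochberg adjustment over 15 share comparisons. For Müller glia the difference from inner neurons was 23.1 ± 5.4 points, and it was -0.04 points in the 3 libraries that gave a share after rod RNA was subtracted. For pigment epithelium it was 7.16 ± 2.21 points, and -1.37 points after the subtraction.

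**Figure D3:**
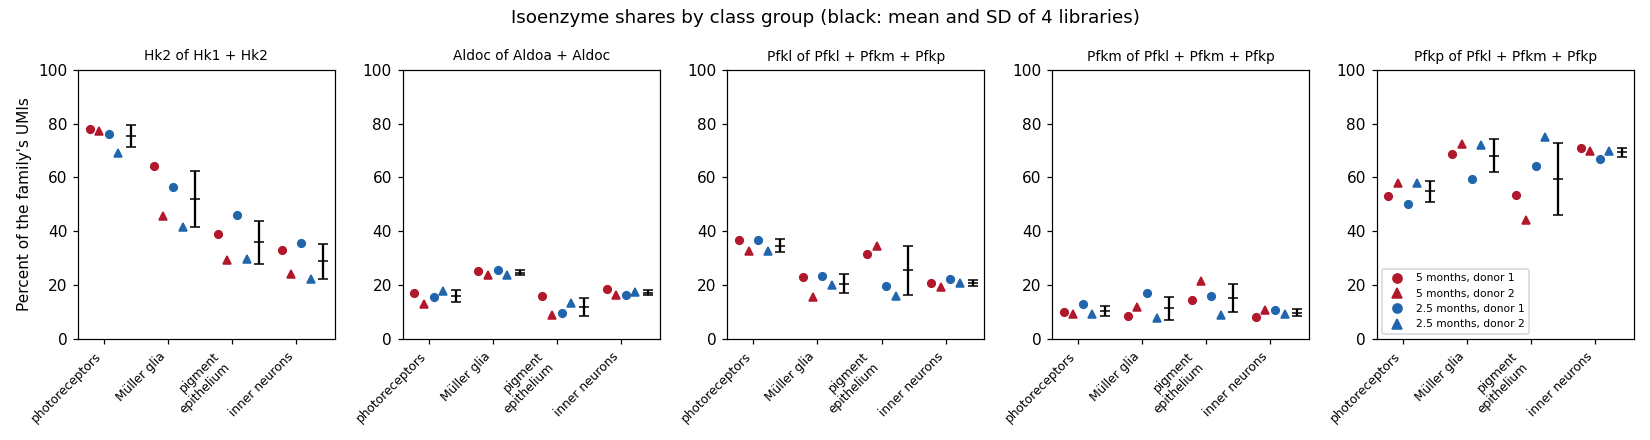
Share of each isoenzyme in the UMIs of its family (vertical axis, percent) in 4 class groups (horizontal axis), with a point for each of 4 libraries and the mean with SD in black. Hk2 is 69.2% to 78.1% in photoreceptors, against 22.3% to 35.7% in inner neurons, and the Aldoc share is 23.6% to 25.5% in Müller glia, above all inner neuron values.

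Phosphofructokinase commits sugar to glycolysis and works as a tetramer of liver-type (Pfkl), muscle-type (Pfkm) and platelet-type (Pfkp) subunits. They lie at chr10:77986947-78010083 (Pfkl, minus strand), chr15:98092589-98132451 (Pfkm, plus strand) and chr13:6579768-6648777 (Pfkp, minus strand). Pfkp was highest in bipolar and ganglion nuclei. Bipolar nuclei had 489 and 401 CPM at 5 months and 358 and 438 CPM at 2.5 months, and ganglion nuclei 447 and 373 CPM at 5 months and 332 and 395 CPM at 2.5 months. Cones were lowest, with 104 and 96.3 CPM at 5 months and 65.1 and 96.5 CPM at 2.5 months. Bipolar and ganglion nuclei overlapped, and no cone value reached the 110.7 CPM of the lowest horizontal library, while cones overlapped pigment epithelium (86.2 to 154 CPM). Photoreceptors had 164 ± 25.9 CPM and inner neurons 306 ± 41.1 CPM (SD, n = 4), and the fitted log2 difference was -1.17 (SE 0.07, adjusted p = 1.25e-20, edgeR's quasi-likelihood test), with -1.15 within 5 months and -1.18 within 2.5 months.

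Rods and cones parted on Pfkp as well. Rods had 268 and 250 CPM at 5 months and 188 and 244 CPM at 2.5 months, with every rod value above every cone value. The log2 difference of rods minus cones was 1.33 (SE 0.11, adjusted p = 6.19e-15, edgeR's quasi-likelihood test), 1.33 within 5 months and 1.35 within 2.5 months. Cones held Pfkp at 34.6% to 39.5% of rods beside rod genes at 32.1% to 40.5% of rods. With that share of rod RNA subtracted, cones had 0 to 23.1 CPM of Pfkp, the rod minus cone difference was 4.49, and the photoreceptor minus inner neuron difference was -2.69. Bipolar nuclei and Müller glia had rod genes at 11.1% to 19.4% of rods. The subtraction took all rod-gene UMIs in cones as rod RNA, and the values it gave for cones and their contrasts hold only under that assumption. The source of the rod genes read in cone nuclei was not tested. Among the 7 bipolar clusters Pfkp averaged 271 to 678 CPM, and it was highest in a cluster of 552 nuclei led by 5033421B08Rik and Cdh9, at 636 to 729 CPM over the 4 libraries.

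Pfkm was scarce in every retinal class. Amacrine nuclei had 53.3 and 62.8 CPM at 5 months and 51.5 and 40.8 CPM at 2.5 months, and rods had 30.3 and 19.9 CPM at 5 months and 22.6 and 22.7 CPM at 2.5 months. Photoreceptors were lower than inner neurons by a log2 difference of -0.83 (SE 0.10, adjusted p = 3.79e-10, edgeR's quasi-likelihood test). Class means of Pfkl lay between 52.1 CPM in pigment epithelium and 116 CPM in rods. Each class overlapped its neighbour in the order of levels. The difference between photoreceptors and inner neurons depended on the scaling: it was -0.01 (SE 0.07, adjusted p = 0.883, edgeR's quasi-likelihood test) with TMM and 0.26 (adjusted p = 0.00122) with scaling to total UMIs alone. Pfkl held 34.7 ± 2.4% of phosphofructokinase UMIs in photoreceptors and 20.8 ± 1.2% in inner neurons, and Pfkp 54.8 ± 3.9% in photoreceptors and 69.3 ± 1.7% in inner neurons (SD, n = 4). Both share differences kept their sign in 4 of 4 libraries (13.9 and -14.5 points, exact permutation test, the smallest p that 4 libraries allow, adjusted p = 0.268 each). Horizontal nuclei did not follow the other inner neurons. Their shares were like those of photoreceptors, at 33.5 ± 2.6% for Pfkl and 55.2 ± 4.3% for Pfkp (SD, n = 4). Bipolar, amacrine and ganglion nuclei had Pfkl shares of 15.2% to 20.7%.

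Aldolase cleaves the 6-carbon sugar of the pathway; aldolase A is the general form and aldolase C, encoded by Aldoc, the form of brain neurons and astrocytes. Aldoa was highest in rods, with 1200 and 968 CPM at 5 months and 1086 and 948 CPM at 2.5 months. Cones had 582 to 986 CPM, overlapping rods and every inner neuron class (436 to 742 CPM over these classes). Pigment epithelium was lowest, with 365 and 401 CPM at 5 months and 366 and 316 CPM at 2.5 months, below every library of every other class. Photoreceptors exceeded inner neurons by 0.32 (SE 0.06, adjusted p = 3.36e-06, edgeR's quasi-likelihood test), a size that 35.2% of the genes tested reached, and by 0.59 with scaling to total UMIs alone. Müller glia had 482 ± 59.3 CPM and inner neurons 622 ± 103 CPM (SD, n = 4), a log2 difference of -0.43 (SE 0.08, adjusted p = 6.97e-06, edgeR's quasi-likelihood test).

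Aldoc (chr11:78322968-78327781, plus strand) was the other member with a call towards Müller glia. They had 189 and 139 CPM at 5 months and 170 and 133 CPM at 2.5 months, overlapping rods (154 to 254 CPM) and ganglion nuclei (115 to 170 CPM). Their log2 difference from inner neurons was 0.22 (SE 0.09, adjusted p = 0.0324, edgeR's quasi-likelihood test), but 0.14 within 5 months (adjusted p = 0.287) and 0.36 within 2.5 months. The call was lost without donor 1 of 5 months (0.19), without donor 1 of 2.5 months (0.17) and without donor 2 of 2.5 months (0.19), and the value was 0.35 without donor 2 of 5 months. As a share of aldolase UMIs Aldoc was steadier, at 24.6 ± 0.9% in Müller glia, 15.9 ± 2.3% in photoreceptors, 12.0 ± 3.3% in pigment epithelium and 17.2 ± 0.9% in inner neurons (SD, n = 4). The Müller glia share lay above that of inner neurons in 4 of 4 libraries, by 7.33 ± 1.16 points (exact permutation test, again the smallest p, adjusted p = 0.268). Pigment epithelium had the least Aldoc, 38.5 to 69.0 CPM, apart from all other classes, and a log2 difference of -1.55 from inner neurons (SE 0.21, adjusted p = 3.16e-08, edgeR's quasi-likelihood test). In photoreceptors the call of 0.20 (SE 0.07, adjusted p = 0.0149) was lost under 8 alternatives, RLE scaling (0.15) and DESeq2 among them, and was 0.47 with scaling to total UMIs alone. It was 0.10 without donor 2 of 2.5 months, 0.14 without donor 1 of 5 months and 0.33 without donor 2 of 5 months. It was 0.06 within 5 months and 0.35 within 2.5 months.

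The second row named Aldoa (chr7:126800790-126809108 on GRCm38, minus strand) is listed apart because its annotated span does not overlap the main Aldoa row (chr7:126795234-126800751, minus strand). It held 189 UMIs in rods, 98 in cones, 39 in inner neurons, 3 in Müller glia, 1 in pigment epithelium and 0 in horizontal nuclei. Photoreceptors had 23.3 times the inner neuron level (95% interval 16.6 to 33.4, counting error only). Its span overlaps Fam57b on the opposite strand, which had 473 to 1035 CPM in rods and cones and 22.6 to 92.4 CPM in the other classes, and which was the gene most like it over the 32 class sums (r = 0.97, followed by Fam149a and Cox6a1). Whether counting used strand is not given in the sources used here, so reads of the row and of Fam57b cannot be told apart.

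Among the later steps, Pgk1 (chrX:106187100-106203699, plus strand), the first enzyme of the pathway to return ATP, was highest in rods. The 5-month rods had 247 and 213 CPM and the 2.5-month rods 241 and 235 CPM, apart from every other class. Photoreceptors as a whole were not called against inner neurons with TMM (0.09, SE 0.06, adjusted p = 0.164, edgeR's quasi-likelihood test), but were called higher with scaling to total UMIs alone (0.35, adjusted p = 3.2e-07). Cones had 142 to 171 CPM, within the range of inner neurons. Pkm (chr9:59656368-59679375, plus strand), which encodes both M1 and M2 pyruvate kinase by splicing, had 828 and 608 CPM in rods at 5 months and 699 and 770 CPM in rods at 2.5 months. It was higher in photoreceptors than in inner neurons by 0.44 (SE 0.05, adjusted p = 7.15e-10, edgeR's quasi-likelihood test), and by 0.70 with scaling to total UMIs alone. Cones had 481 to 708 CPM of Pkm, overlapping ganglion (479 to 582 CPM) and bipolar nuclei (385 to 518 CPM). The gene counts do not separate M1 from M2. Within the inner retina ganglion nuclei had the most Pkm, 479 to 582 CPM, against 293 to 316 CPM in horizontal nuclei. Gapdh (chr6:125161715-125166467, minus strand) had only 0 to 13.2 CPM in every class and library. It has many near-identical copies in the mouse genome, so its counts are uncertain, and its call as higher in rods than in cones (0.64, adjusted p = 0.0467, edgeR's quasi-likelihood test) was lost under 10 alternatives, among them the omission of any 1 library.

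**Figure D4:**
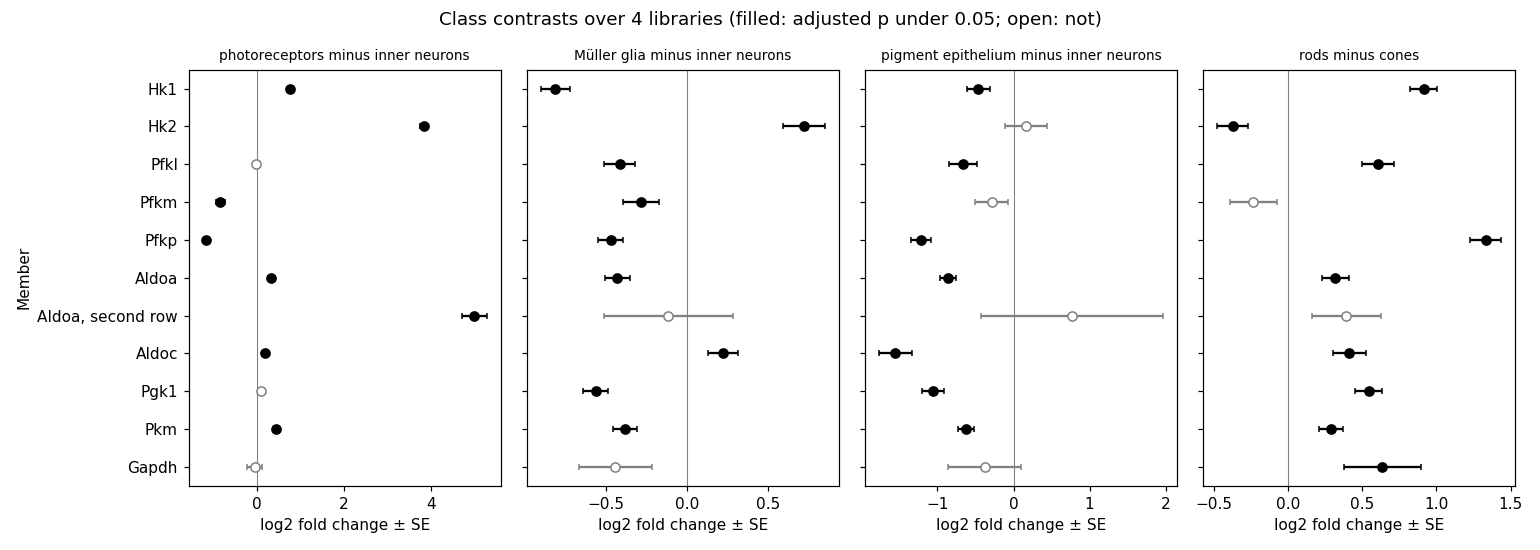
Fitted log2 differences with SE (horizontal axis, a different range in each panel) of the 11 rows (vertical axis) for 4 class contrasts over 4 libraries; filled points had an adjusted p under 0.05. Hk2 is at 3.83 in photoreceptors minus inner neurons, and most other rows lie to the left of 0 in the Müller glia and pigment epithelium panels.

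Counted over the list, photoreceptors against inner neurons had 6 of 11 rows called higher (Hk1, Hk2, both Aldoa rows, Aldoc and Pkm) and 2 called lower (Pfkm and Pfkp), where 37% of all 14536 genes tested were called higher and 34.3% lower. The median log2 difference was 0.20 over the members and 0.02 over all genes. With scaling to total UMIs alone 8 rows were called higher and 2 lower, and the genes called in all were 7325 higher and 3730 lower, against 5376 higher and 4984 lower with TMM. In Müller glia against inner neurons 2 rows were called higher (Hk2 and Aldoc) and 7 lower (Hk1, the 3 phosphofructokinases, Aldoa, Pgk1 and Pkm), beside 31.7% higher and 29.5% lower of all genes, with medians of -0.41 and 0.00. Pfkm (-0.28) lost its call under 8 alternatives, among them the omission of donor 1 or 2 of 5 months or donor 2 of 2.5 months. Without donor 2 of 2.5 months it was -0.18, and it was called within neither age. Without donor 2 of 5 months Pfkl was -0.27 and Pkm -0.24, against -0.41 and -0.38 in all 4 libraries. In pigment epithelium against inner neurons none of 11 was called higher and 7 were called lower (Hk1, Pfkl, Pfkp, Aldoa, Aldoc, Pgk1 and Pkm), beside 20.4% higher and 21.4% lower of all genes, with medians of -0.62 and -0.10. Of these, Hk1 (-0.46) and Pfkl (-0.66) lost their calls without donor 2 of 2.5 months (-0.33 and -0.47). Within 5 months neither was called (-0.19 and -0.32), and within 2.5 months both were (-0.71 and -1.04).

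Set directly against each other, photoreceptors exceeded Müller glia in 7 rows (Hk1, Hk2, Pfkl, both Aldoa rows, Pgk1 and Pkm) and were lower in Pfkm and Pfkp, beside 33.9% higher and 33.2% lower of all genes (4929 and 4828 genes with TMM, 6363 and 4089 with scaling to total UMIs alone). Hk1 differed by 1.56 (SE 0.09, adjusted p = 2.38e-20) and Hk2 by 3.11 (SE 0.12, adjusted p = 3.27e-27, edgeR's quasi-likelihood test). The Pfkl call (0.40) was lost without donor 2 of 5 months (0.22) and within 2.5 months (0.33). Aldoc did not differ beyond error (-0.03, SE 0.10, adjusted p = 0.828). Pigment epithelium was lower than photoreceptors in 8 rows and higher in none, beside 24.2% lower and 24.7% higher of all genes (3511 and 3596 genes with TMM, 2651 and 4374 by DESeq2); the exceptions were Pfkm (0.55, SE 0.24, adjusted p = 0.0596), which was called higher with RLE scaling (0.70), by DESeq2 (0.69) and without donor 2 of 2.5 months (0.75), Pfkp (-0.05) and Gapdh. For Pfkp the 2 ages had opposite signs, with -0.55 within 5 months (adjusted p = 0.0342, called lower) and 0.32 within 2.5 months (adjusted p = 0.152, edgeR's quasi-likelihood test); the difference between the ages was not tested in this contrast. The Pfkp difference became 1.24 (adjusted p = 0.00155, edgeR's quasi-likelihood test) with rod RNA subtracted, under the assumption about cones given above. Pfkl (-0.65) was -0.48 and lost its call without donor 2 of 2.5 months. It also lost its call within 5 months (-0.36, against -0.93 within 2.5 months). The second Aldoa row was among the 8, and its single pigment epithelium UMI came from donor 2 of 5 months. Pigment epithelium was lower than Müller glia in 4 rows (Aldoa, Aldoc, Pfkp and Pgk1) and higher in none, beside 20.2% lower and 17.7% higher of all genes. Within 5 months 2 of the 4 were called, and within 2.5 months 2. Pfkp was -1.30 within 5 months and -0.31, not called, within 2.5 months, and Aldoa was not called within 5 months (-0.40). The Pgk1 call (-0.49) was lost within both ages, without donor 1 of 5 months (-0.39) and without donor 2 of 2.5 months (-0.39). Hk1 (0.35, adjusted p = 0.118, edgeR's quasi-likelihood test) was called higher under 5 alternatives, among them the subtraction of rod RNA (1.24) and the omission of donor 2 of 2.5 months (0.54). Without donor 2 of 5 months Pfkl (-0.65) and Pkm (-0.35) were called lower, against -0.25 and -0.24 in all 4 libraries, and Pkm was also called lower (-0.41) with more doublets removed.

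Rods exceeded cones in 8 of 11 rows (Hk1, Pfkl, Pfkp, Aldoa, Aldoc, Pgk1, Pkm and Gapdh) and were lower in Hk2, beside 22.8% higher and 18.3% lower of all genes. The median was 0.41 over the members and 0.11 over all genes. Hk1 differed by 0.91 (SE 0.09, adjusted p = 3.32e-12) and Pfkl by 0.61 (SE 0.11, adjusted p = 1.08e-05, edgeR's quasi-likelihood test). Hk2 was 625 ± 138 CPM in rods and 777 ± 122 CPM in cones (SD, n = 4), ranges that overlapped, with a log2 difference of -0.37 (SE 0.10, adjusted p = 0.00316, edgeR's quasi-likelihood test). Within 5 months this was -0.27 (adjusted p = 0.144) and within 2.5 months -0.48 (adjusted p = 0.00526). Of the 9 rows called, 9 were called within 2.5 months and 4 within 5 months (Hk1, Pfkl, Pfkp and Pgk1). Within 5 months the others had 0.11 (Aldoa), 0.23 (Aldoc), 0.19 (Pkm) and 0.36 (Gapdh), against 0.53, 0.54, 0.40 and 1.33 within 2.5 months. Aldoa (0.32) and Pkm (0.29) lost their calls without donor 2 of 2.5 months, at 0.21 and 0.18.

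The rest of the pathway was read from a list of 25 further glycolysis genes, of which 20 passed the filter on low counts. In photoreceptors against inner neurons 9 were called higher and 6 lower, beside 37% and 34.3% of all genes. With scaling to total UMIs alone 13 were called higher and 3 lower. Those higher with TMM included Tigar (1.44), whose product lowers fructose 2,6-bisphosphate, Pgam2 (1.28), Ldha (1.20), the lactate dehydrogenase subunit that favours lactate, Pfkfb2 (0.98) and Bpgm (0.94). Ldha had 393 to 527 CPM in rods and 213 to 343 CPM in cones, against 70.0 to 199 CPM over the 4 inner neuron classes, without overlap. Pgam2 encodes the muscle mutase and had 22.9 CPM in photoreceptors of donor 1 of 2.5 months, the library with the most muscle RNA, against 2.59 to 4.49 CPM in the other libraries. Those lower with TMM included Pfkfb3 (-2.84), Hkdc1 (-0.79), Pfkfb4 (-0.60) and Gpi1 (-0.33). With scaling to total UMIs alone Hkdc1 (-0.53) and Gpi1 (-0.07) lost their calls, Ldhb turned to 0.02 against -0.25 with TMM, and Eno2 (0.33), Adpgk (0.35), Pgam1 (0.29) and Tpi1 (0.22) were called higher. Pfkfb3, which makes fructose 2,6-bisphosphate, was highest in horizontal nuclei, with 172 to 244 CPM there and at most 34.7 CPM elsewhere.

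In Müller glia against inner neurons 5 of the 20 were called higher and 10 lower, beside 31.7% and 29.5% of all genes. The 5 higher were Hkdc1 (4.88), a further hexokinase family member, Eno1 (1.27), Eno1b (0.85), Pfkfb4 (0.53) and Bpgm (0.43). Hkdc1 had 57.4 to 80.5 CPM in Müller glia and 16.4 to 34.5 CPM in pigment epithelium, against at most 6.01 CPM in any neuron. The 5 furthest below 0 were Pfkfb3 (-1.80), Eno2 (-1.28), Gpi1 (-1.2), Tigar (-1.10) and Pfkfb1 (-1.06). The enolases thus split by class, with Eno1 at 435 to 587 CPM in Müller glia and 151 to 302 CPM in inner neurons, and the neuronal form Eno2 at 41.8 to 57.7 CPM in Müller glia and 67.0 to 234 CPM in inner neurons. In pigment epithelium against inner neurons only Hkdc1 was called higher (3.34), and 10 were called lower, among them Pfkfb3 (-3.24), Tigar (-1.39; -1.28 and not called with scaling to total UMIs alone), Eno1b (-1.36) and Pgam1 (-1.34). Of all genes, 20.4% were called higher and 21.4% lower in pigment epithelium against inner neurons. The medians of the 20 genes in the 3 contrasts were 0.07, -0.25 and -0.85.

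In rods against cones 8 of the 20 were called higher, among them Ldha (0.62), Pfkfb4 (0.59), Eno1 (0.44), Eno1b (0.44) and Ldhb (0.42), and Adpgk (-0.73) and Tigar (-0.44) were called lower. In photoreceptors against Müller glia 12 were called higher, led by Tigar (2.54), Pfkfb1 (1.64), Ldha (1.51), Eno2 (1.34) and Pfkfb2 (1.15), and 7 lower (5 with scaling to total UMIs alone), among them Hkdc1 (-5.68), Pfkfb4 (-1.13), Pfkfb3 (-1.03) and Eno1 (-0.71). In pigment epithelium against photoreceptors Hkdc1 (4.14) and Ldhb (0.43; 0.25 and not called with scaling to total UMIs alone) were called higher and 10 lower, led by Tigar (-2.83), Ldha (-2.08), Eno1b (-1.73), Eno2 (-1.38) and Pgam1 (-1.36). In pigment epithelium against Müller glia Pfkfb1 (2.07) was called higher and 7 were called lower, led by Eno1b (-2.21), Eno1 (-1.88), Hkdc1 (-1.54), Pfkfb4 (-1.33) and Pgam1 (-0.76). Of all genes, 22.8% were called higher and 18.3% lower in rods against cones, and 33.9% and 33.2% in photoreceptors against Müller glia. The shares were 24.7% and 24.2% in pigment epithelium against photoreceptors, and 17.7% and 20.2% in pigment epithelium against Müller glia.

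Across the 32 class sums the genes most like Hk2 in log2 level were Tulp1 and Rp1l1 (r = 0.98 each) and Sag (r = 0.98), all photoreceptor genes. For Hk1 they were Ypel2 (r = 0.94), Cep290 (r = 0.93) and Ppp2r5e (r = 0.92). Pgk1 was most like Ndrg3 (r = 0.93), and then Aldoa (r = 0.91) and Pgam1 (r = 0.90), both of the pathway. Pfkl was most like Pgk1 (r = 0.87), Tpi1 (r = 0.80) and Hsf1 (r = 0.79). Pfkp was most like Nxph1 (r = 0.89), Magi1 (r = 0.89) and Gm20658 (r = 0.88). Pfkm was most like Cntnap2 (r = 0.82), Fgf14 (r = 0.82) and Col11a1 (r = 0.81). Aldoa was most like Fbxl5 (r = 0.94), Ndrg3 (r = 0.94) and Gm9856 (r = 0.91). Aldoc was most like Med14 (r = 0.90), Gm26694 (r = 0.88) and Fkbp5 (r = 0.88). Pkm was most like Mtmr6 (r = 0.93), Tuba1b (r = 0.92) and March1 (r = 0.91). Gapdh was most like Aes (r = 0.86), Vps11 (r = 0.84) and Ndufab1 (r = 0.83). Between members, Hk2 and Pfkp had r = -0.34, Hk2 and Pfkm r = -0.51, and Aldoa and Pkm r = 0.86. These correlations describe 32 sums that share 4 libraries and a common depth, among 7937 genes of at least 20 CPM, and carry no test.

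With all 4 libraries, no member was called as differing by age. Over 80 tests of members in the 8 classes, edgeR's quasi-likelihood test with Benjamini-Hochberg adjustment called 0 (6 had an unadjusted p under 0.05) and DESeq2 called 0 (4 unadjusted). The share of all genes called higher at 5 months was 0.043% in rods, 0.0521% in cones, 0.0517% in bipolar, 0.0263% in amacrine, 0.0415% in horizontal and 0.0298% in ganglion nuclei, 0.0636% in Müller glia and 0.0317% in pigment epithelium. The share called lower was 0.0258% in rods, 0.0261% in cones, 0.0172% in bipolar, 0.0131% in amacrine, 0.0554% in horizontal and 0.0224% in ganglion nuclei, 0.0318% in Müller glia and 0.0158% in pigment epithelium. In simulated amacrine data with a fixed dispersion and a known 2-fold change, 0 of 100 changed genes were recovered, so a real change of that size may go uncalled. In both 5-month libraries Hk2 in rods was above both 2.5-month libraries, with means of 733 ± 78.2 and 518 ± 64.2 CPM at 5 and 2.5 months (SD, n = 2 each), a log2 difference of 0.52 (SE 0.16, adjusted p = 0.774).

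The fitted differences leaned upward at 5 months, with 67 of 80 above 0. Class medians were 0.10 to 0.34 for the members, against 0.01 to 0.03 for all genes. Software and doublet removal also differed between the ages, as given above. Both 5-month libraries lay above both 2.5-month libraries in 21 of 88 pairs of row and class, and below them in 3. Among all genes tested, that happened upward in 10% of genes in horizontal nuclei to 22.5% in amacrine nuclei, and downward in 16.5% in bipolar nuclei and 18% in cones to 31.3% in horizontal nuclei. Aldoa was above in 4 classes (cones, bipolar, amacrine and horizontal nuclei), where the upward share of all genes was 17.6%, 20.8%, 22.5% and 10%. None of the 33 tests of whether a class contrast differed by age was called by edgeR's quasi-likelihood test (2 unadjusted), against 0.447% of all genes called larger at 5 months for photoreceptors, 0.131% for Müller glia and 0.124% for pigment epithelium, each minus inner neurons, and 0.0206%, 0.0206% and 0.138% called smaller. The smallest adjusted p was 0.297, for Pfkp in pigment epithelium minus inner neurons, with -1.70 within 5 months and -0.86 within 2.5 months. Without donor 1 of 5 months the photoreceptor contrast was called as differing by age for Hk2 (0.71, adjusted p = 0.0193) and Aldoc (-0.55, adjusted p = 0.0379). Without donor 2 of 5 months Hk2 was called higher at 5 months in Müller glia (1.10, adjusted p = 0.00216, edgeR's quasi-likelihood test), where its level was 7.96% to 14.7% of rods beside rod genes at 11.1% to 18.03%.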

How the data were processed

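For each of 4 libraries of 10x nuclear RNA the deposited values are unnormalized whole-number UMI counts by gene and barcode. Per the file headers the matrices were made with Cell Ranger 7.1.0 (2.5 months) and 4.0.0 (5 months), and per the submitters' processing notes the build was mm10. Intron and strand counting are not given in the sources used here.

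Barcodes under 300 genes or over 5% mitochondrial UMIs were dropped (27 of 32326). Doublets called by scrublet (672 and 784 at 5 months, 3 and 1 at 2.5 months, where the caller did not work) were removed. Nuclei were clustered with scanpy 1.11.5 on 2000 variable genes without glycolysis genes (46 clusters). A cluster was named for the type with most markers at a log2 difference over 1 from the median cluster, if these were at least 3. It stayed unnamed where another type had more markers among the 10 leading genes, or for small size, called doublets or low UMIs. In all, 2895 of 30839 nuclei stayed unnamed. UMIs of each class in each library were added up and modelled in edgeR 4.0.16 (its quasi-likelihood test after TMM scaling, 2-sided). Library was a block in class contrasts, and library within age in class contrasts by age. Tests of age within a class had no block. Class contrasts within 5 or 2.5 months came from the fit by age, with dispersion estimated over both ages. An adjusted p under 0.05 over all genes tested was called. Equal class weights were used within photoreceptors and inner neurons. Shares were tested by exact sign flips over libraries. DESeq2 1.42.0 was an alternative. Scaling to total UMIs alone, a stricter doublet removal and the inclusion of the muscle-led rod cluster were alternatives chosen after seeing the data. In simulated data for photoreceptors against inner neurons, 68 of 100 genes changed 1.5-fold and 99 of 100 changed 2-fold were recovered, with 10 false calls among 13731 genes. All simulated class sums shared the same mean profile and dispersion, apart from the changed genes. Differences in composition between classes and library effects were absent, so these rates need not hold for the real classes. Gene positions came from GENCODE M21 and promoters from RefSeq.

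All 10 members were named everywhere. Of the other glycolysis genes up to 5 called higher and 5 called lower per contrast were named by size, except 1 that is not reported here, and for each member the 3 genes most like it; the horizontal-cell levels of Pfkfb3 and the bipolar cluster high in Pfkp were picked after their values were seen. The members and lists were chosen with earlier results of these data known. With library as a block, p-values of class contrasts rest on the spread left after library effects, with dispersion estimated over all class sums. P-values of age within a class measure the spread between libraries, and intervals cover counting error only.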

Additional observations from a re-analysis of the deposited data

Results flagged for a closer look

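Over the 4 libraries of a class, 1 library stood far from the other 3 in 5 of 87 pairs of row and class, and chance flags about 1 in 20. Hk2 in Müller glia was highest in donor 1 of 5 months, at 115.8 CPM, against 53.4 to 58.2 CPM in the other libraries. Aldoc in cones was highest in the same library, at 202.7 CPM, against 129 to 138 CPM in the others. In ganglion nuclei donor 2 of 2.5 months was lowest for Pfkm, at 36.1 CPM, and for Aldoc, at 114.9 CPM. The second Aldoa row in pigment epithelium had its 1 UMI in donor 2 of 5 months, which gives 2.33 CPM. No explanation was tested.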

How the results depend on the processing

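Of the 66 to 77 pairs of member row and class contrast that each alternative gave, 0 (muscle-led rod cluster counted as rods) to 12 (without donor 2 of 2.5 months) changed direction or call. In rods minus cones, 9 rows were called, and 4 without the library block (3921 genes in all, against 5968). Leaving out 1 library gave 7 to 8 called rows for photoreceptors, 7 to 8 for Müller glia and 5 to 7 for pigment epithelium, each minus inner neurons, 8 to 9 for photoreceptors minus Müller glia, 8 for pigment epithelium minus photoreceptors, 3 to 6 for pigment epithelium minus Müller glia and 6 to 8 for rods minus cones. It gave 0 to 2 rows for the photoreceptor contrast by age and 0 to 1 for age within a class. With rod RNA subtracted, Pfkp in pigment epithelium minus photoreceptors turned to 1.24 and the Hk2 shares of Müller glia and pigment epithelium against inner neurons to -0.039 (3 libraries) and -1.37 points; for Hk2 and the second Aldoa row no fold could be given for 8 results, under that subtraction or without 1 library. With scaling to total UMIs alone, chosen after seeing the data, Pfkl in photoreceptors minus inner neurons turned to 0.26 and Pgk1 was called at 0.35.

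Small share differences turned sign. For Pfkl in Müller glia minus inner neurons (-0.29 points), keeping called doublets gave 0.25, pooling classes 3.59 and leaving out 1 library -1.07 to 0.88. For Pfkm in photoreceptors minus inner neurons (0.61), pooling gave -1.31. Leaving out 1 library gave -0.024 to 2.63 for Pfkm and -2.47 to 0.84 for Pfkp in Müller glia minus inner neurons. The cause was not tested.

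The labels do not say that donor numbers pair animals across ages, and the correlation of same-numbered deviations was -0.05 to 0.04 over classes. With the replicate block 0 member rows were called for age, while all genes called over the 8 classes numbered 390, against 60 without it, 127 with DESeq2 and 939 with no filter on low counts. Genes called for a contrast by age ranged from 1 to 164 over the alternatives, against 68, 22 and 38. RLE in place of TMM scaling moved the median of all genes in pigment epithelium minus photoreceptors from -0.08 to 0.06. Few UMIs limit what Gapdh and the second Aldoa row can show.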

Other observations

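Nuclei outside the retinal classes were also read, as values only. The 93 striated muscle nuclei had 190 to 944 CPM of Hk2, the insulin-responsive hexokinase of muscle, and 294 to 708 CPM of Pfkm, the muscle phosphofructokinase, over the 4 libraries, with Hk1 at 0 to 52.5 CPM. Their sums were small: the 5-month libraries gave 18 and 10 such nuclei, the 2.5-month libraries 62 and 3, so that the lowest Hk2 value rests on 2 UMIs in 3 nuclei. The 151 immune nuclei had 166 to 363 CPM of Hk2 and 45.3 to 99.5 CPM of Hk1. In 2111 fibroblast and 1031 melanocyte nuclei Hk2 was at 50.3 to 121 CPM and 45.3 to 132 CPM, beside 15.5 to 116 CPM in the retinal classes outside photoreceptors. The rod cluster led by muscle genes had 475 to 749 CPM of Hk2 and 267 to 387 CPM of Hk1, and in its 1268 nuclei of donor 1 of 2.5 months Pfkm was at 27.2 CPM.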
